A study of Mus musculus with 4 samples.

Results

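The SLC25 genes encode the mitochondrial carrier family, and their expression was compared between young and old intestinal stem cells (ISCs). The members were the genes listed under the symbol Slc25a followed by a number, which gave 47 of the 52459 genes in the count table. Of these, 39 had enough reads to be tested, among 13692 genes tested in all. ISCs of wild-type (WT) C57/Bl6 mice were sorted by surface markers (the SM6 strategy, which takes EPCAM+, EPHB2high and CD44high cells that lack CD31 and CD45). There were 2 libraries from mice of 2 months (ISC_2mth, young) and 2 from mice of 22 months (ISC_22mth, old). Each library came from the pooled cells of 5 animals, so the spread between libraries is that between pools and not between mice. The question was which carriers differ in expression between young and old ISCs.

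SLC25 proteins sit, with few exceptions, in the inner mitochondrial membrane, where each moves a particular set of metabolites, nucleotides or cofactors between the cytosol and the matrix. They bring ADP and phosphate in for ATP synthesis, send citrate and ATP out, and carry the aspartate, malate and acylcarnitines that link cytosolic and mitochondrial metabolism. Stem cells of the crypt contain active mitochondria, and the supply of pyruvate and fatty acids to these mitochondria is known to influence whether such cells self-renew or differentiate.

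Values of 2 kinds are given. A normalized level is the read count scaled to the size of the library (CPM), with a correction by the trimmed mean of M values (TMM), and a log2 fold change is the difference of old from young ISCs in edgeR's quasi-likelihood test, with its standard error (SE) and with the false discovery rate (FDR) adjusted by Benjamini-Hochberg over all genes tested. The libraries held between 11662654 and 15975698 counts, and the share of mitochondrially encoded genes was 62.6% and 65.7% for the young pools and 73.8% and 72.9% for the old pools. Because of this share the scale matters for nuclear genes. Scaling to total counts moved the log2 fold change of the median gene from -0.0049 to -0.50, whereas TMM kept it near 0, so all differences here are relative to the bulk of genes. The stem cell markers Lgr5, Ascl2, Olfm4 and 5 others were detected in every pool, with a summed level of 2141 and 2001 CPM in young and 1810 and 1998 CPM in old ISCs, and 0 of 8 passed the test. Olfm4 made up most of this sum (1302, 1230, 1111 and 1289 CPM), while for Lgr5, Axin2, Rnf43, Znrf3 and Sox9 both old pools were below both young pools (Axin2 nearest to the threshold, edgeR FDR 0.0511) and for Ascl2 both were above. Of all genes tested, 23.6% had both old pools below and 24.0% had both above the young pools. Enterocyte markers summed to 388 and 519 CPM in young and 880 and 804 CPM in old ISCs, with Sis, Fabp2 and Fabp1 higher (3 of 8 markers), and Paneth markers to 925, 715, 2062 and 800 CPM, with Defa17 and Defa24 higher (2 of 6) and old pool 1 apart from the others. Itgam was higher among 8 leukocyte markers, which summed to 14.9, 15.9, 21.9 and 22.6 CPM (4.69, 2.92, 2.65 and 1.97 CPM without Itgam) with Cd79a and Cd3g among those at 0, and Dclk1 was higher among 5 tuft markers, which summed to 0.828, 2.19, 6.13 and 3.19 CPM with Il25 at 0. Enough reads for the test were found for 2 of the 8 leukocyte, 2 of the 5 tuft and 1 of the 8 stromal markers. Goblet markers (1870, 2461, 2559 and 1981 CPM), enteroendocrine markers (24.8, 125, 105 and 73.4 CPM) and stromal markers (1.24, 1.66, 1.06 and 1.56 CPM) held 0 called genes. The part of these cells in the SLC25 results was not tested, and in pooled cells fewer cells of a type and less RNA per cell cannot be told apart.

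Of the 39 SLC25 genes tested, 2 were higher in old ISCs and 0 were lower at an FDR under 0.05. Among all genes tested 1.63% were called higher and 0.628% lower. The genes called were Slc25a24, a calcium-regulated carrier that exchanges ATP-Mg for phosphate, and Slc25a46, an outer membrane member of the family linked to mitochondrial fission. At an unadjusted p under 0.05 in the same edgeR test there were 6 SLC25 genes, against 16.9% of all genes tested. Slc25a24, Slc25a46, Slc25a20 and Slc25a3 had the higher values in old ISCs, and Slc25a23 and Slc25a30 the lower. DESeq2 called 0 of the 39. On total counts edgeR called 0 of the 39 higher and 10 lower, beside 96 and 4554 of the 13692 genes tested. In the role groups described next, a call is one of edgeR's test with TMM. The 6 genes named above are those at an unadjusted p under 0.05 in that test.

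**Figure D1:**
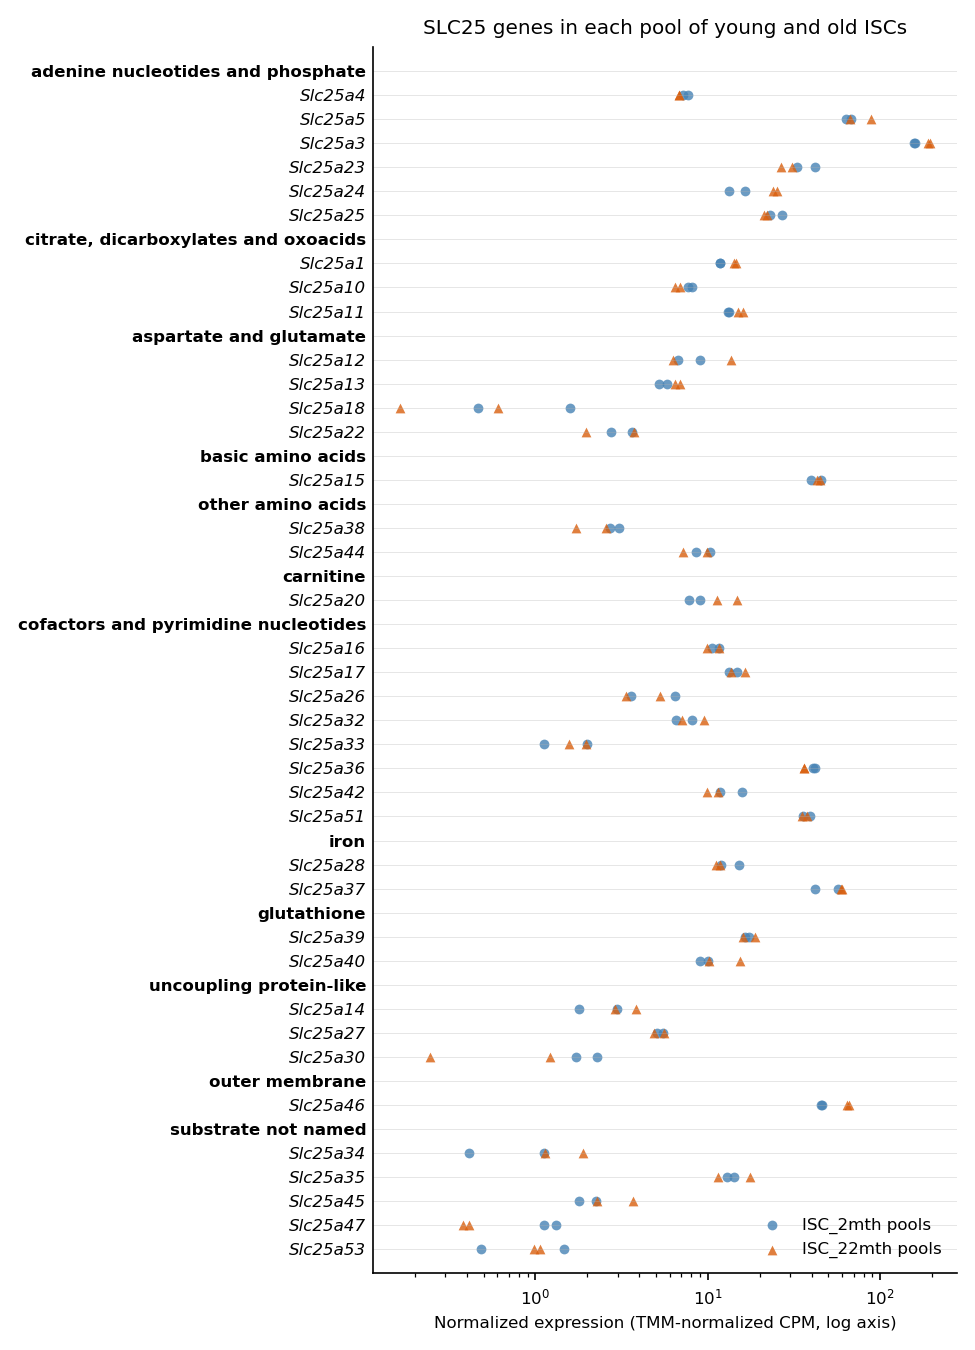
Normalized level (TMM-normalized CPM, log axis) of 38 of the 39 SLC25 genes tested, grouped by what they carry, with 1 point for each of the 2 young (circles) and 2 old (triangles) pools. Slc25a3 has the highest level in all 4 pools on this scale, which is not corrected for length, and for Slc25a24 and Slc25a46 both old pools lie to the right of both young pools.

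Slc25a24 had 192 and 249 reads in the young pools and 333 and 293 reads in the old pools. The normalized levels were 13.2 and 16.5 CPM in young and 25.2 and 24.0 CPM in old ISCs, so neither old pool reached down to the young ones. The mean rose 1.65-fold, from 14.9 ± 2.30 to 24.6 ± 0.851 CPM (SD, n = 2 pools per age), with an edgeR log2 fold change of 0.72 (SE 0.17, 95% interval 0.37 to 1.08) and an FDR of 0.0282. The gene lies at chr3:109123149-109168457 on the plus strand (GRCm38, protein coding, exonic length 3431 bases). None of its 50-base stretches occurs in another gene's transcripts. The call was lost with DESeq2 (FDR 0.0638), with offsets for GC content and length (log2 fold change 0.58, edgeR FDR 0.0941), on total counts (0.24, edgeR FDR 0.315) and without young pool 1 (0.58, edgeR FDR 0.302), while the direction held in all 14 alternatives and 4 omissions of a pool.

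Slc25a46 had 668 and 686 reads in the young pools and 848 and 805 reads in the old pools. The normalized levels were 46.1 and 45.5 CPM in young and 64.2 and 65.9 CPM in old ISCs, and the gap between ages was many times that between pools. The mean rose 1.42-fold, from 45.8 ± 0.446 to 65.0 ± 1.24 CPM (SD, n = 2 pools per age), with an edgeR log2 fold change of 0.51 (SE 0.13, 95% interval 0.24 to 0.77) and an FDR of 0.0395. The gene lies at chr18:31556111-31609911 on the minus strand, and 383 bases of its exons overlap those of B930094E09Rik on the opposite strand, which without a stated strand setting could share reads (6.21% of its 50-base stretches are found in both). The call was lost with DESeq2 (FDR 0.0501), with offsets for GC content and length (log2 fold change 0.38, edgeR FDR 0.148), with upper quartile scaling (edgeR FDR 0.0632), on total counts (0.01, edgeR FDR 0.942), without young pool 1 (edgeR FDR 0.222) and without young pool 2 (edgeR FDR 0.164), with the direction the same in each.

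Single pools moved the values. Without young pool 1 the log2 fold change was 0.58 for Slc25a24 and 0.52 for Slc25a46, and without young pool 2 it was 0.89 and 0.49. For Slc25a12 it was 0.80 without old pool 1 and -0.32 without old pool 2. The values of Slc25a30 were -2.98 without old pool 1 and -0.72 without old pool 2, and those of Slc25a20 were 0.43 and 0.81. The number of genes called moved in these fits too, over all genes as over the SLC25 genes. In these fits the remaining pool of an age was assumed to vary like the pools of the other age.

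**Figure D2:**
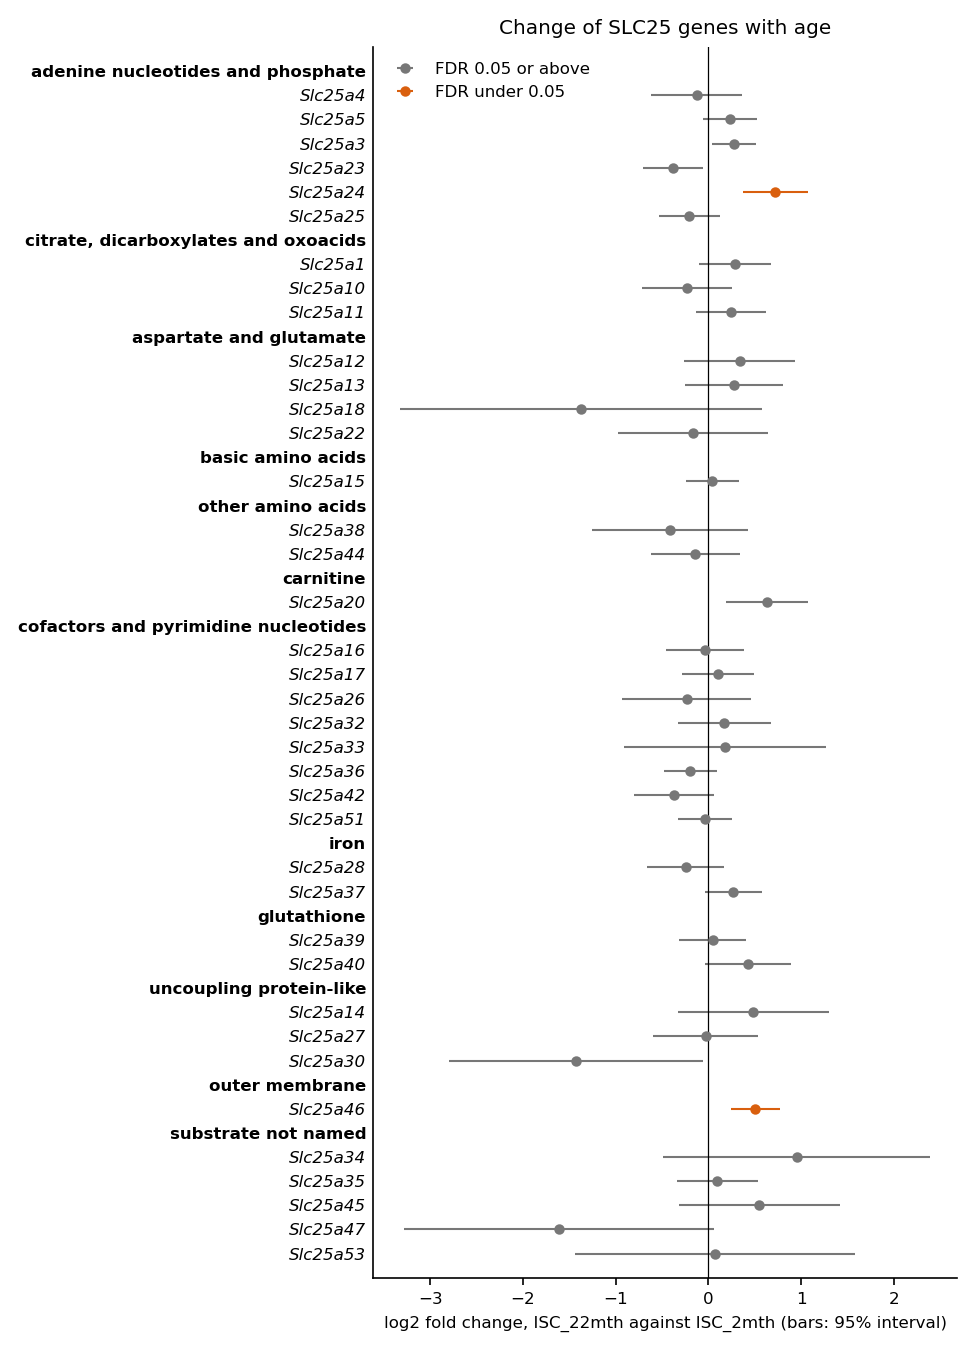
The log2 fold change of old against young ISCs for 38 of the 39 SLC25 genes tested, with its 95% interval from edgeR and the genes grouped by what they carry. The intervals of Slc25a24 and Slc25a46, the 2 genes with an FDR under 0.05, start at 0.37 and 0.24, and most others cross 0.

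Over the 39 genes, 22 had a positive and 17 a negative log2 fold change, with a median of 0.05 beside -0.0049 for all genes tested. The median on total counts was -0.44, which is 0.06 above that of all genes on the same scale. The middle of the family, between the first and the third quartile, lay between -0.20 and 0.28, and 25 of the 39 differed by less than 0.3 in size. Both old pools were above both young pools for 11 SLC25 genes, against 24.0% of all genes tested, and below them for 10, against 23.6%. For the other 18 the ages overlapped. The median SE was 0.22, so that for a typical carrier a difference of the size seen in most members could not be told from no difference with 2 pools per age. These shares near the background are no result about the family.

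**Figure D3:**
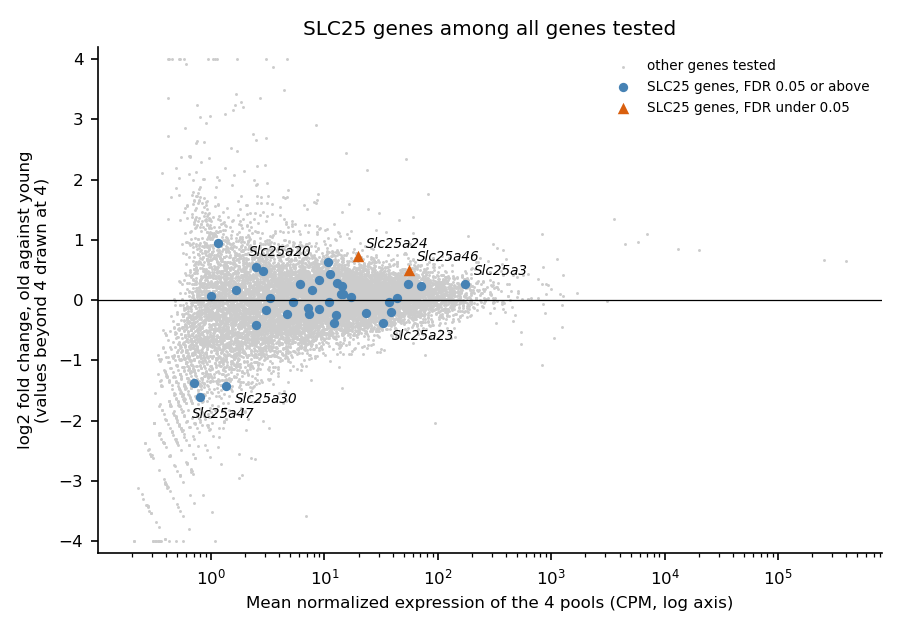
The log2 fold change of old against young ISCs against the mean normalized level of the 4 pools (CPM, log axis) for the 13692 genes tested, with the 39 SLC25 genes marked. The family runs from 0.705 to 175 CPM, and its members of low level, such as Slc25a30 and Slc25a47, have the wider spread that other genes of that level show.

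As a sum, the 47 SLC25 genes reached 708 and 733 CPM in young ISCs and 789 and 807 CPM in old ISCs (720 ± 17.98 and 798 ± 12.4, SD, n = 2 pools per age), while on total counts, which include the mitochondrially encoded ones, the order was the opposite, with 879 and 826 against 653 and 692 unnormalized CPM. The family was uneven. The 6 members with the most reads made up between 55.3% and 60.5% of the sum in each pool, and Slc25a3 alone between 21.5% and 24.2%.

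Levels were also set per kilobase of exon, with the length taken over the merged exons of all annotated transcripts of a gene. On this scale the order was led by Slc25a5, the adenine nucleotide translocase 2, at 43.4 CPM per kb (38.6 to 53.5 over the 4 pools). Slc25a3, the phosphate carrier, came next at 31.5 CPM per kb (28.4 to 35.2). The ranges of these genes did not overlap, but their order rests on merged lengths of 1646 bases for Slc25a5 and 5550 bases for Slc25a3. Lengths of the transcripts in use were not measured, and before division by length Slc25a3 had the higher level. Per kilobase, Slc25a46 (10.2, from 8.38 to 12.2) and Slc25a37 (9.07, from 6.94 to 9.95) followed well below Slc25a3. Their ranges overlapped each other and, for Slc25a37, that of Slc25a15 at 7.67 CPM per kb (7.00 to 8.10). About 1 in 3 of the 50-base stretches of Slc25a5 (33.8%) also occur in transcripts of other loci such as Gm5560, so its level is uncertain.

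Genes for adenine nucleotide and phosphate transport include the translocases, which exchange cytosolic ADP for matrix ATP, the phosphate carrier, and the calcium-regulated ATP-Mg/phosphate carriers. Of 9 listed, 6 were tested, 1 was called higher (Slc25a24) and 0 lower. Slc25a3 had 2306 and 2378 reads in young and 2485 and 2387 reads in old ISCs, or 159 and 158 against 188 and 195 CPM. The old pools were both above the young ones, by less than the test required across all genes (158 ± 1.08 and 192 ± 5.26 CPM, SD, n = 2 pools per age, edgeR log2 fold change 0.28, SE 0.11, unadjusted p = 0.0238, FDR 0.216). Slc25a23, the paralog of Slc25a24, had 41.7 and 32.9 CPM in young and 30.7 and 26.6 CPM in old ISCs, with both old pools below both young pools. Its difference on the log2 scale was -0.38 (SE 0.15) and did not pass (edgeR FDR 0.215). The difference was -0.20 without young pool 1 and -0.54 without young pool 2. On total counts Slc25a23 passed (edgeR FDR 0.000477), a scale on which 4554 of the 13692 genes tested were called lower. Slc25a25, the third of these calcium-regulated carriers, had 23.0 and 26.8 CPM in young and 21.2 and 22.1 CPM in old ISCs (log2 fold change -0.20, SE 0.16, edgeR FDR 0.545). Of the 3 carriers, Slc25a24 thus had a positive and both others a negative value, and the differences between these values were not tested.

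Slc25a5 had 63.5 and 67.7 CPM in young and 66.4 and 88.0 CPM in old ISCs, where old pool 2 stood above the rest and the ages overlapped (65.6 ± 2.96 and 77.2 ± 15.3 CPM, SD, n = 2 pools per age, log2 fold change 0.23, SE 0.14, edgeR FDR 0.418). The value was 0.02 without old pool 2 and 0.42 without old pool 1. Slc25a4, the translocase 1 that prevails in heart and muscle, had 7.18 and 7.69 CPM in young and 6.81 and 6.80 CPM in old ISCs (log2 fold change -0.13, SE 0.23, edgeR FDR 0.832). Per kilobase, Slc25a5 was 12.7 and 12.6 times as abundant as Slc25a4 in the young pools and 13.9 and 18.5 times in the old pools. By this measure translocase 2 was the prevailing form at both ages. Slc25a31, the translocase of male germ cells, and Slc25a41 and Slc25a54 had 0 reads in all 4 pools, which allows at most between 0.199 and 0.246 CPM per library at a floor of 3 counts. Slc25a54 is the next SLC25 gene before Slc25a24 on chromosome 3, and Slc25a41 lies beside Slc25a23 on chromosome 17, so in both pairs 1 neighbour was detected and the other was not.

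The sequences before the starts of 5 genes are printed because these are, besides Slc25a46, the SLC25 genes with an unadjusted p under 0.05. Each runs 5′ to 3′ in the sense of the gene, from RefSeq on GRCm38.p6, and covers 250 bases before the start or, for Slc25a20 and Slc25a3, the 202 and 158 of these bases that lie before the first exon of the GENCODE annotation. Capitals mark TGCGCA (core of the NRF1 site), CCGGAAG (an ETS site, as GABPA binds) and TGACNNNGC (core of the antioxidant response element), each searched on both strands.
Slc25a24 (chr3:109122899-109123148, plus strand): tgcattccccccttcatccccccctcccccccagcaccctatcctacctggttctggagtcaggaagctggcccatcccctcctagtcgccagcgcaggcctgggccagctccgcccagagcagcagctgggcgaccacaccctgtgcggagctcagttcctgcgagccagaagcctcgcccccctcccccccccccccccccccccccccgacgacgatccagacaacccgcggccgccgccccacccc
Slc25a20 (chr9:108661886-108662087, plus strand): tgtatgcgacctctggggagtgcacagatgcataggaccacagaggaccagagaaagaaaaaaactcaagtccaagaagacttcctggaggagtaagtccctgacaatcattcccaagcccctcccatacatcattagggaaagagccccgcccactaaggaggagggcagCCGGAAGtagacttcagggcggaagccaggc
Slc25a23 (chr17:57059864-57060113, minus strand): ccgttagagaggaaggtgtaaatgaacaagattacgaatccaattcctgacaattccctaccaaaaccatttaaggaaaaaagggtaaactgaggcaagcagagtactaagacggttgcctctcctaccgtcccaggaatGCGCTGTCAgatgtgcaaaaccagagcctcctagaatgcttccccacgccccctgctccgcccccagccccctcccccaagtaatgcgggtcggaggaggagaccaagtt
Slc25a3 (chr10:91124060-91124217, minus strand): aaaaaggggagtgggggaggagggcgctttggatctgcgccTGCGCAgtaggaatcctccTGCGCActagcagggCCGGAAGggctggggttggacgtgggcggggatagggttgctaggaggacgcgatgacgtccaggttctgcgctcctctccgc
Slc25a30 (chr14:75787038-75787287, minus strand): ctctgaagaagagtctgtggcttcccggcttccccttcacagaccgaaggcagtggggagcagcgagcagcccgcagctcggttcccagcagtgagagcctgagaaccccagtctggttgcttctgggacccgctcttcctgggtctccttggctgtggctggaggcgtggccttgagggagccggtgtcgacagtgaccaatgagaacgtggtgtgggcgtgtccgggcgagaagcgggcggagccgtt
The window of Slc25a24 holds none of these letters and is 72.8% G and C. In the window of Slc25a3, TGCGCA stands at -209 and -190 and CCGGAAG at -175 from the RefSeq start, and TGACNNNGC stands at -48, in the bases not printed. Slc25a20 has CCGGAAG at -79, Slc25a23 has TGACNNNGC on the opposite strand at -110, and Slc25a30 has none.

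A window was found for 36 of the 47 SLC25 genes. TGCGCA was in the window of 4 of them, Slc25a31, Slc25a3, Slc25a21 and Slc25a36, which is 11.1% beside 7.36% of the 27025 genes with a window. CCGGAAG was in 6 (16.7% beside 7.83%), TGACNNNGC in 7 (19.4% beside 11.5%) and TCAAGGTCA, the site of ESRRA, in 0 of 36 beside 0.422%. The median GC content of the windows was 57.4% for the SLC25 genes and 52.4% for all. These counts describe letters and not binding.

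Slc25a20 carries acylcarnitines into the matrix in exchange for carnitine, a step of fatty acid oxidation. It had 130 and 118 reads in young and 194 and 138 reads in old ISCs, or 8.97 and 7.82 against 14.7 and 11.3 CPM. Both old pools were above both young pools, and they differed from each other by more than the young ones did (8.39 ± 0.813 and 13.0 ± 2.39 CPM, SD, n = 2 pools per age). For Slc25a20 the log2 fold change was 0.63 (SE 0.21, 95% interval 0.19 to 1.08) with an unadjusted p of 0.00789 and an edgeR FDR of 0.131. It passed only without old pool 2 (0.81, edgeR FDR 0.0267), among the 14 alternatives and 4 omissions of a pool.

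Of 5 genes for enzymes that work with Slc25a20, 3 were tested and 0 were called by edgeR or DESeq2, with 3 at an unadjusted p under 0.05 (16.9% of all genes tested), all with positive values. Cpt1c (5, 4, 1 and 2 reads) and Cpt1b (2, 0, 0 and 0 reads) were not tested. Cpt2, which returns the acyl group to coenzyme A in the matrix, had 25.6 and 24.1 CPM in young and 31.3 and 34.5 CPM in old ISCs (log2 fold change 0.41, SE 0.15, edgeR FDR 0.160). Cpt1a, which makes acylcarnitine at the outer membrane, had 98.0 and 87.7 CPM in young and 121 and 106 CPM in old ISCs (0.29, SE 0.12, edgeR FDR 0.233). For both, the old pools lay above the young pools. Fabp1 and Fabp2, enterocyte markers that bind fatty acids, were called higher in the same pools, with 18.1 and 16.6 against 117 and 59.8 CPM for Fabp1, and the part of enterocyte RNA in the values of Slc25a20, Cpt2 and Cpt1a was not tested.

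**Figure D4:**
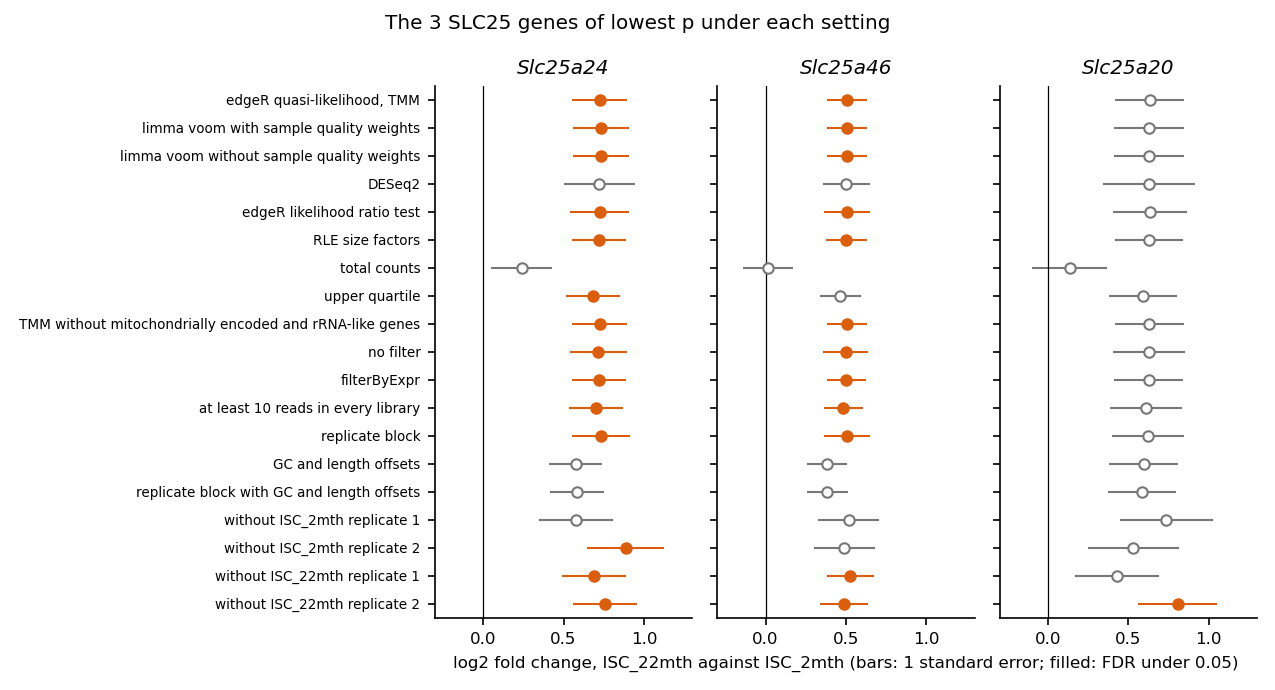
The log2 fold change (with 1 SE) of Slc25a24, Slc25a46 and Slc25a20 under the edgeR quasi-likelihood test with TMM and under each alternative or omission of a pool, filled where the FDR is under 0.05. All values are above 0, those on total counts lie nearest to 0, and Slc25a20 is filled only without ISC_22mth replicate 2.

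Carriers of citrate, dicarboxylates and oxoacids move the intermediates of the citric acid cycle, and 0 of the 3 tested (of 4) were called. For each of the 3 the ages did not overlap, as for many genes (24.0% of all genes had both old pools above and 23.6% both below the young pools). Slc25a1, which exports citrate for fatty acid synthesis, had 11.7 CPM in both young pools and 14.5 and 14.1 CPM in old ISCs (log2 fold change 0.29, SE 0.19, edgeR FDR 0.462). Slc25a11, the oxoglutarate carrier of the malate-aspartate shuttle, had 13.0 and 13.2 CPM in young and 15.0 and 16.1 CPM in old ISCs (0.24, SE 0.18, edgeR FDR 0.532). Slc25a10, the dicarboxylate carrier, had 8.07 and 7.62 CPM in young and 6.89 and 6.47 CPM in old ISCs (-0.23, SE 0.23, edgeR FDR 0.661). Slc25a21, the oxoadipate carrier, had 1 read in all.

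Carriers of aspartate and glutamate were all tested, and 0 of 4 were called. Slc25a12, an aspartate-glutamate exchanger of the malate-aspartate shuttle, had 97 and 135 reads in young and 83 and 166 reads in old ISCs. Its old pools were the lowest and the highest of the 4 (6.28 and 13.6 CPM, against 6.69 and 8.95 in young ISCs), and its log2 fold change of 0.34 (SE 0.29, edgeR FDR 0.588) went from -0.32 to 0.80 as single pools were left out. Slc25a13, its counterpart in liver and other epithelia, had 5.80 and 5.23 CPM in young and 6.89 and 6.47 CPM in old ISCs (0.28, SE 0.25, edgeR FDR 0.618). The glutamate carriers Slc25a18 (23, 7, 8 and 2 reads, -1.37, SE 0.93, edgeR FDR 0.484) and Slc25a22 (2.76 and 3.64 against 3.71 and 1.97 CPM, -0.17, SE 0.39, edgeR FDR 0.870) overlapped between ages. Slc25a18 passed the filter by the young pools only, which favours a negative value.

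Mdh1, the cytosolic malate dehydrogenase of the malate-aspartate shuttle, was the 1 gene called among the 46 tested of 52 companion genes of mitochondrial transport, beside 1.63% of all genes tested that were called higher. It had 1109 and 1053 reads in young and 1326 and 1488 reads in old ISCs, or 76.5 and 69.8 against 100.3 and 122 CPM, and both old pools were above both young pools. This gave a log2 fold change of 0.60 (SE 0.13) with an edgeR FDR of 0.0180, and the call was lost on total counts, with offsets for GC content and length and without young pool 2. The other shuttle enzyme of lowest p was Gpd1, the glycerol-3-phosphate dehydrogenase of the cytosol, with 26.6 and 35.2 CPM in young and 22.1 and 26.0 CPM in old ISCs (-0.36, SE 0.16, edgeR FDR 0.267). In all, 6 shuttle genes were tested and 0 were called lower. Without old pool 1, 3 companion genes were called higher, among them Mdh1 and Timm8a1, and Pprc1 was called lower, in a fit that called 399 of the 13692 genes higher and 248 lower.

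Among carriers of basic amino acids, Slc25a15, the ornithine carrier of the urea cycle and of polyamine supply, was the 1 tested of 3. It had 39.4 and 45.6 CPM in young and 44.6 and 43.0 CPM in old ISCs, and the ages overlapped (42.5 ± 4.38 and 43.8 ± 1.17 CPM, SD, n = 2 pools per age). For Slc25a15 the log2 fold change was 0.04 (SE 0.14, edgeR FDR 0.908), with a 95% interval of -0.24 to 0.33. Slc25a29, which carries lysine and arginine, had 3, 2, 4 and 8 reads and Slc25a2 had 1 read in all. Slc25a38, the glycine carrier that feeds heme synthesis, had 2.69 and 3.05 CPM in young and 2.57 and 1.72 CPM in old ISCs (-0.41, SE 0.40, edgeR FDR 0.648). Slc25a44, a carrier of branched-chain amino acids, had 10.3 and 8.55 against 9.91 and 7.21 CPM (-0.14, SE 0.23, edgeR FDR 0.814). Neither was called.

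Carriers of cofactors and pyrimidine nucleotides were the largest group with all members tested, and 0 of 9 were called. Slc25a36, which carries pyrimidine nucleotides for mitochondrial DNA and RNA synthesis, had 41.6 and 40.8 CPM in young and 36.1 and 36.0 CPM in old ISCs. Both old pools lay below both young pools (41.2 ± 0.601 and 36.0 ± 0.101 CPM, SD, n = 2 pools per age), with a log2 fold change of -0.19 (SE 0.13, edgeR FDR 0.498). Slc25a42, which brings in coenzyme A, had 15.9 and 11.8 CPM in young and 11.5 and 9.83 CPM in old ISCs (-0.37, SE 0.21, edgeR FDR 0.377), again without overlap, and the difference was -0.14 without young pool 1 and -0.58 without young pool 2. On total counts Slc25a36 (-0.69, edgeR FDR 0.00193), Slc25a42 (-0.87, edgeR FDR 0.00418) and Slc25a51 (edgeR FDR 0.0132) passed as lower. On that scale 4554 of the 13692 genes tested were called lower. Slc25a26, the S-adenosylmethionine carrier (-0.23, SE 0.33), and Slc25a32, the folate and FAD carrier (0.17, SE 0.24), overlapped between ages. The carriers of NAD (Slc25a51) and of other nucleotides and cofactors (Slc25a16, Slc25a17 and Slc25a33) had overlapping ages as well. Log2 fold changes in the group ran from -0.37 to 0.18.

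Both iron carriers were tested, and 0 of 2 were called. Slc25a37 (mitoferrin-1), which is best known for delivering iron for heme in red cell precursors, came next after Slc25a46 in the order per kilobase, with 41.8 and 57.2 CPM in young and 59.9 and 59.5 CPM in old ISCs. The old pools were nearly equal and lay above both young pools, which differed more (49.5 ± 10.9 and 59.7 ± 0.336 CPM, SD, n = 2 pools per age, log2 fold change 0.27, SE 0.15, edgeR FDR 0.365). The value was 0.06 without young pool 1 and 0.51 without young pool 2. Of 6 erythroid markers, 5 (the globin genes Hba-a1, Hba-a2, Hbb-bs and Hbb-bt among them) were at 0 reads in every pool, and the sixth, Alas2, had 2.69 and 2.19 CPM in young and 1.97 and 1.31 CPM in old ISCs. Slc25a28 (mitoferrin-2), the widely expressed counterpart, had 11.9 and 15.2 CPM in young and 11.2 and 11.7 CPM in old ISCs (-0.24, SE 0.20, edgeR FDR 0.569).

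Both glutathione carriers, which bring the matrix its main thiol antioxidant, were tested, and 0 of 2 were called. Slc25a40 had 8.97 and 10.0 CPM in young and 15.4 and 10.2 CPM in old ISCs, where old pool 1 stood above the other 3 (9.49 ± 0.733 and 12.8 ± 3.68 CPM, SD, n = 2 pools per age, log2 fold change 0.43, SE 0.22, edgeR FDR 0.339). Without old pool 1 the log2 fold change of Slc25a40 was 0.10. Old pool 1 also had the highest Paneth, enterocyte, goblet and tuft marker sums, and the part of these cells in the value of Slc25a40 was not tested. Slc25a39 overlapped between ages, with 16.4 and 17.2 CPM in young and 16.0 and 18.8 CPM in old ISCs (0.05, SE 0.17, edgeR FDR 0.917).

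Among the members related to uncoupling proteins, 3 were tested and 0 were called. Slc25a30 had 33 and 26 reads in young and 16 and 3 reads in old ISCs, or 2.28 and 1.72 against 1.21 and 0.246 CPM. Both old pools were below both young pools, and old pool 2 was at the floor of 3 counts. For Slc25a30 the log2 fold change was -1.43 (SE 0.66, 95% interval -2.80 to -0.05, edgeR FDR 0.278). It was -2.98 without old pool 1 and -0.72 without old pool 2. On total counts Slc25a30 passed (-1.93, edgeR FDR 0.0208), a scale on which 4554 of the 13692 genes tested were called lower. Slc25a14 (1.79 and 2.98 against 2.88 and 3.85 CPM, 0.49, SE 0.39) and Slc25a27 (5.52 and 5.10 against 4.84 and 5.57 CPM, -0.03, SE 0.27) overlapped between ages.

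Of the 7 members whose substrate is not named here, 5 were tested and 0 were called. Slc25a47, known mainly from liver, had 19 and 17 reads in young and 5 reads in each old pool, or 1.31 and 1.13 against 0.378 and 0.409 CPM. The pools of each age were close to each other and apart from those of the other age (1.22 ± 0.130 and 0.394 ± 0.0220 CPM, SD, n = 2 pools per age). The difference, -1.61 on the log2 scale, had the largest size among the 39 SLC25 genes tested and did not pass at these counts (SE 0.80, unadjusted p = 0.0586, edgeR FDR 0.317). Slc25a47 passed the filter by its young pools only, and a gene that enters the test in this way is favoured to have a negative value. Slc25a34 had 6, 17, 15 and 23 reads (0.95, SE 0.69), Slc25a45 had 26, 34, 30 and 45 reads (0.55, SE 0.42), and Slc25a35, which overlaps Rangrf over 1151 exonic bases on the opposite strand, had 187, 215, 232 and 140 reads (0.10, SE 0.21). Slc25a53 overlapped between ages. Slc25a43 (1, 1, 2 and 3 reads) and Slc25a48 (1, 3, 0 and 0 reads) were not tested.

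Carriers are made in the cytosol and inserted into the inner membrane by the small Tim chaperones and the TIM22 complex. Of the 10 genes of this path, all were tested and 0 were called by edgeR, with 1 at an unadjusted p under 0.05 (16.9% of all genes tested) and 0 called by DESeq2. Of the 10, 8 had a log2 fold change above 0, beside 49.5% of all genes tested, and for 6 both old pools were above both young pools, beside 24.0% of all genes. Timm8a1, a small Tim chaperone, had 4.00 and 2.98 CPM in young and 4.99 and 7.45 CPM in old ISCs (0.83, SE 0.30, edgeR FDR 0.167). Timm10, whose protein forms a chaperone ring with that of Timm9, had 6.49 and 5.23 CPM in young and 7.42 and 9.01 CPM in old ISCs (0.49, SE 0.24, edgeR FDR 0.322).

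Inner membrane transporters of other families gave 0 calls of 16 tested (of 18), with 4 at an unadjusted p under 0.05 (16.9% of all genes tested), of which 3 had positive values and 1, Abcb6, a negative one (14, 10, 2 and 2 reads, log2 fold change -2.30, SE 1.07, edgeR FDR 0.285). Abcb6 passed the filter by the young pools only, which favours a negative value. Mpc2, a subunit of the pyruvate carrier, had 20.3 and 25.0 CPM in young and 32.6 and 30.4 CPM in old ISCs (log2 fold change 0.47, SE 0.16, edgeR FDR 0.120), while its partner Mpc1 had between 3 and 10 reads and was not tested. For Mpc2 the old pools lay above the young pools. Of 5 members of the carrier family known by another symbol, 3 were tested and 0 were called, with 0 at an unadjusted p under 0.05. Ucp2, a carrier of C4 metabolites and the uncoupling protein found in most tissues, had 205 and 186 CPM in young and 186 and 155 CPM in old ISCs (-0.19, SE 0.12, edgeR FDR 0.452). Mtch2, an outer membrane insertase, had 57.9 and 64.2 CPM in young and 70.0 and 67.6 CPM in old ISCs (0.17, SE 0.13, edgeR FDR 0.521).

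Of the 8 regulators of mitochondrial biogenesis, all were tested and 0 were called by edgeR, with 2 at an unadjusted p under 0.05 (16.9% of all genes tested). Of the 8, 7 had a log2 fold change below 0, and 49.5% of all genes tested had one above 0. Pprc1, a coactivator of the PGC-1 family, had 33.4 and 34.4 CPM in young and 28.3 and 19.6 CPM in old ISCs (-0.50, SE 0.17, edgeR FDR 0.128). Nrf1, the factor that binds TGCGCA cores, had 17.8 and 18.4 CPM in young and 12.7 and 13.6 CPM in old ISCs (-0.46, SE 0.18, edgeR FDR 0.183). For both, the old pools lay below the young pools. Slc25a3 and Slc25a36, the tested SLC25 genes with that core in their window, had log2 fold changes of 0.28 and -0.19. On total counts the regulators Gabpa, Nrf1, Ppara, Ppargc1a, Ppargc1b and Pprc1 were called lower, as were 4554 of the 13692 genes tested. Pprc1 was also called lower with the replicate block, in a fit that called 216 genes lower.

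**Figure D5:**
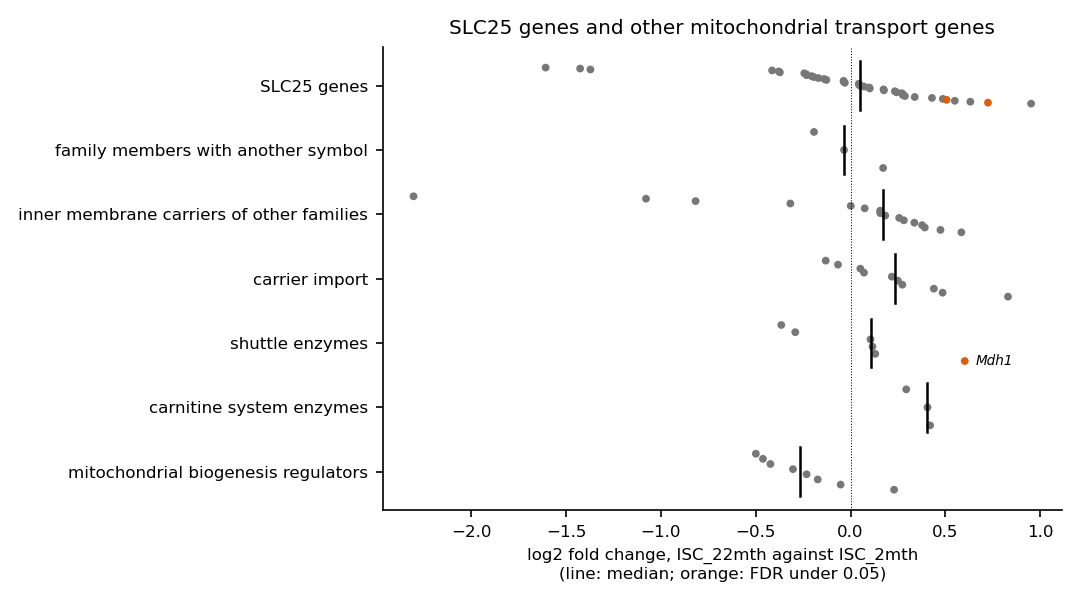
The log2 fold change of old against young ISCs for the 39 SLC25 genes tested and for the 46 companion genes tested, by list, with a line at each list's median and orange points for an FDR under 0.05. Orange marks 2 SLC25 genes and Mdh1, and the medians run from -0.27 for biogenesis regulators to 0.41 for carnitine system enzymes.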

How the data were processed

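RNA of sorted ISCs was amplified by single primer isothermal amplification, which adds no molecular identifiers, and sequenced from 1 end. According to the study's methods, the authors used Trimmomatic (version 0.30) for trimming, STAR (version 2.4.2a) for alignment to GRCm38 and featureCounts for exonic reads of GENCODE vM15 genes. The deposited values are raw counts per gene, neither normalized nor filtered. The strand setting and the treatment of reads with several alignments are not given in the sources used here, and opposite-strand or near-identical genes could exchange reads.

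Here a gene was tested if any pool had over 5 reads and over 1 CPM of it, which held for 13692 of 52459 genes. Ages were compared with edgeR 4.0.16 (R 4.3.3; TMM, glmQLFit, glmQLFTest, no covariate, FDR threshold 0.05), with 2 pools per age. Nothing states that replicate numbers pair the ages. On raw counts scaled by totals and not by TMM, the mean chi-square per gene between replicate pools was 10.3 in ISC_2mth and 7.38 in ISC_22mth. An excess over counting noise was certain for pools of different animals, so these values only describe the spread on that scale. An exact permutation test of a single value cannot go below p = 0.333 here, so none is given. Depth was between 11662654 and 15975698 counts, and 3 counts corresponded to between 0.199 and 0.246 normalized CPM, which covers counting error only. The alternatives tried were DESeq2 1.42.0 (independent filtering off), limma 3.58.1 (voom, once with sample quality weights and once with none), the likelihood ratio test of edgeR, other scalings and filters, the replicate block, offsets for GC content and length, and leaving out each pool. The fits were also run on simulated counts, and no outcome of that run is used here.

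Members, roles, companion lists and markers were chosen with earlier results of these data known. Full values are given for genes called, the 10 of lowest p and the 6 of highest level, then by role for at most 4 others of lowest p, and of each companion list for genes called and the 2 of lowest p. Positions, lengths and GC content came from GENCODE vM21 on GRCm38, matched by symbol. Promoter windows came from RefSeq on GRCm38.p6, and exonic stretches of 50 bases were compared between genes by exact match. Values of a few genes are not reported here.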

Additional observations from a re-analysis of the deposited data

How the results depend on the processing

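With 2 pools per age, small differences of single carriers were below what this depth and spread could resolve. The count of SLC25 genes called higher (2) was 0 with DESeq2, with total counts, with GC and length offsets and with the replicate block plus these offsets, 1 with the upper quartile, and between 0 and 3 when 1 pool was left out. The count called lower (0) was 10 on total counts (among them Slc25a15, Slc25a23, Slc25a30, Slc25a36 and Slc25a42) and between 0 and 1 when 1 pool was left out. The cause was not tested for DESeq2 and the offsets. Total counts include the mitochondrially encoded reads, and on them the median of all genes was -0.50. The median log2 fold change of the SLC25 genes (0.05) was -0.437 on total counts, 0.00846 with the upper quartile, 0.0193 with GC and length offsets, and between 0.0166 and 0.0821 when 1 pool was left out. Total counts also turned the sign of 16 of the 39 genes tested, among them Slc25a5 (-0.253), Slc25a3 (-0.216), Slc25a15 (-0.444), Slc25a37 (-0.213) and Slc25a40 (-0.0634). Slc25a15 turned with GC and length offsets (-0.0038), with the replicate block plus these offsets (-0.00116) and between -0.0553 and 0.147 when 1 pool was left out.

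For the companion genes, the count called higher (1) was 0 on total counts, with GC and length offsets and with the replicate block plus these offsets, and between 0 and 3 when 1 pool was left out. Their count called lower (0) was 13 on total counts, 1 with the replicate block (Pprc1) and between 0 and 1 when 1 pool was left out. Deviations of pools with the same number had a correlation of -0.00588 over all genes and 0.236 over the SLC25 genes, and with 2 such pairs the numbers are not taken as pairs. With the replicate block the SLC25 calls were Slc25a24 (edgeR FDR 0.00329) and Slc25a46 (edgeR FDR 0.0154), and 623 genes were called in all, against 309 without it. The count over all genes was 197 with DESeq2, 611 with the likelihood ratio test, 4650 on total counts (96 higher and 4554 lower, against 223 and 86), 554 without a filter, and 198 with the replicate block plus offsets. It was 217 with offsets alone and between 147 and 691 when 1 pool was left out. Over all SLC25 genes tested and all these settings, 628 of 696 values kept their direction and their side of the threshold, 12 no longer passed and 12 newly passed with the same direction, and 44 turned in sign, 16 of these on total counts, where Slc25a15 both turned and passed.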
